A study of Artemia franciscana with 14 samples.

Results

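The genes described here lie by number in the pseudoautosomal region (PAR) of the Z chromosome of the brine shrimp *Artemia franciscana*. The limits of the range, jg8968 and jg9331, are the first and last of the PAR genes that the study shows. Within it, 178 genes were chosen by their mean raw count over 12 single embryos, which had to be above 10. The table holds 331 genes in this range of numbers and 19421 genes in all. Because measured counts chose the members, the fact that they are expressed in the embryos is a description and not a finding.

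In this ZW species the female is the heterogametic sex. The PAR is the part of the sex chromosomes that still recombines, so females and males carry the same number of copies of its genes. The differentiated region, Z(diff), lacks a working W copy of most genes in females, and its output is adjusted by dosage compensation. PAR genes therefore serve as the neighbours on the same chromosome for which no such adjustment is required. The identifiers are not paired with gene symbols or functions in the sources used here, so each gene is described by its number and its values alone.

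The libraries came from wild-type animals. Whole ovoviviparous embryos were sequenced singly, 3 females and 3 males at 1–2 days post-fertilization (dpf, around the blastula) and 3 females and 3 males at 4 dpf (after gastrulation). At the younger stage, female replicate 3 and male replicate 1 were taken at 1 dpf and the other 4 embryos at 2 dpf. Beside them, 1 adult female and 1 adult male were sequenced after the germline had been removed, with a fixed RNA input, whereas embryo RNA was too scarce to be measured. The study assigned the sex of each embryo from SNPs in Z(diff) transcripts, and the labels do not say which brood an embryo came from, so that p-values measure the spread between these embryos.

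Counts of all reads were deposited, with PCR copies included, so intervals and floors cover counting error only. Total counts per embryo ranged from 2669131 to 7463397, and the adults had 3342959 (female) and 1840926 (male). Values for embryos are given as CPM (counts scaled to a common library total) after TMM scaling over the 12 embryos, and values for adults as CPM of the library's own total. CPM were not divided by gene length, so values of different genes are compared here only as shares of reads. Whole embryos mix all of their cells, and a lower value from fewer cells of a type and from less RNA per cell cannot be told apart.

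One library stood apart. Female replicate 12 at 1–2 dpf had reads on 118 of the 178 PAR genes, against 163 to 177 in the other 11 embryos, and 33 genes with reads in all of those 11 had none in it. Its total, 4327510 counts, was within the range of the stage. Where leaving it out changed a call, a direction or a count of calls below by much, the value without it is given with the result.

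The minimum divides neighbouring values closely. The genes just inside it were jg8981 (mean raw count 11.1), jg9306 (11.8), jg9007 (13), jg9004 (13.5) and jg9016 (14.3). Just outside were jg9326 (9.5), jg9122 (8.92), jg9107 (8.67), jg9155 (8.58) and jg9158 (8.25). Of the 153 genes of the range at or below the minimum, 57 had no read in any embryo and 96 had some. Among the 178, a mean above 10 was reached at both stages by 159, at 4 dpf alone by 16 and at 1–2 dpf alone by 3, and genes of the latter 2 kinds had to differ between the stages in raw counts.

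Together the 178 genes took a narrow share of all counted reads. At 1–2 dpf the 6 embryos had a share of 1.73% ± 0.0754 (SD, n = 6). At 4 dpf the share was 1.82% ± 0.0542 (SD, n = 6). It was 1.32% in the adult female (95% Wilson interval 1.31% to 1.33%) and 1.48% in the adult male (1.46% to 1.5%). Both adult shares lay below those of all 12 embryos, the lowest of which was 1.63%. The minimum was set on embryo counts, so genes of the range read mainly in adults were left out of the adult shares. The 178 genes held 27242 of 29058 reads of the range in the adult male and 44161 of 45254 in the adult female. In male replicate 2 at 4 dpf they held 131885 of 132224.

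A few genes carried much of this share. The 4 genes jg9019, jg9173, jg9319 and jg9020 held between 31.7% and 49.1% of the PAR reads of an embryo. Over the embryos, 25 genes had a mean above 100 CPM, 100 were between 10 and 100 CPM and 53 were under 10 CPM. The median gene had a mean of 24.6 CPM.

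Among the abundant genes, jg9019 had 1914, 2497 and 3373 CPM (lowest, median and highest) at 1–2 dpf and 1198, 2347 and 3070 CPM at 4 dpf, so the stages overlapped. For jg9173 the values were 1423, 2349 and 3454 CPM at 1–2 dpf and 1246, 1619 and 2074 CPM at 4 dpf. The decrease in jg9173, a log2 fold change of -0.62 ± 0.23 (SE), did not pass the adjusted threshold (edgeR quasi-likelihood test, adjusted p = 0.122). The remaining genes among the 10 with the highest mean CPM were jg9154, jg9207, jg9156, jg9046, jg9103 and jg9131, of which jg9154 alone differed between the stages at an adjusted p under 0.05.

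Some genes kept nearly the same level in every embryo. With the lowest SD of log2 CPM among genes of at least 10 CPM, jg9207 ran from 749 to 1358 CPM and jg9319 from 1114 to 2025 CPM over all 12 embryos. jg9020 followed, from 857 to 1647 CPM. jg9187, jg9157 and jg9141 completed the 6 steadiest genes, with coefficients of variation (CV) of 20.1%, 24.1% and 25.3%. These values included female replicate 12 at 1–2 dpf. Over all members the median CV was 61.1% and the highest 343%.

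The first comparison asked which PAR genes changed between 1–2 dpf and 4 dpf. Of 169 genes that could be tested (edgeR, Benjamini-Hochberg adjustment over all 8362 genes tested), 7 were higher at 4 dpf and 5 were lower. Over all genes tested, 4.46% were higher and 3.54% were lower, so the shares among PAR genes, 4.14% and 2.96%, were close to those of the whole transcriptome. With DESeq2, 15 PAR genes were higher (8.11% of all genes) and 7 were lower (5.57% of all genes). The 6 embryos of each stage did not overlap for 9 genes that were higher at 4 dpf (5.05% of all genes) and for 3 that were lower (2.67% of all genes). Without female replicate 9 at 1–2 dpf, 3 genes were called lower. Without female replicate 12 at 1–2 dpf, 9 were called higher and 6 lower. The share of all genes was not worked out for these fits. The median log2 fold change was 0.10 over the PAR genes and 0.04 over all genes, and that of the PAR genes was 0.013 without female replicate 12 at 1–2 dpf. Of the 12 genes called, jg8973 and jg9140 passed the minimum count through 4 dpf alone, and jg9240 through 1–2 dpf alone.

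**Figure D1:**
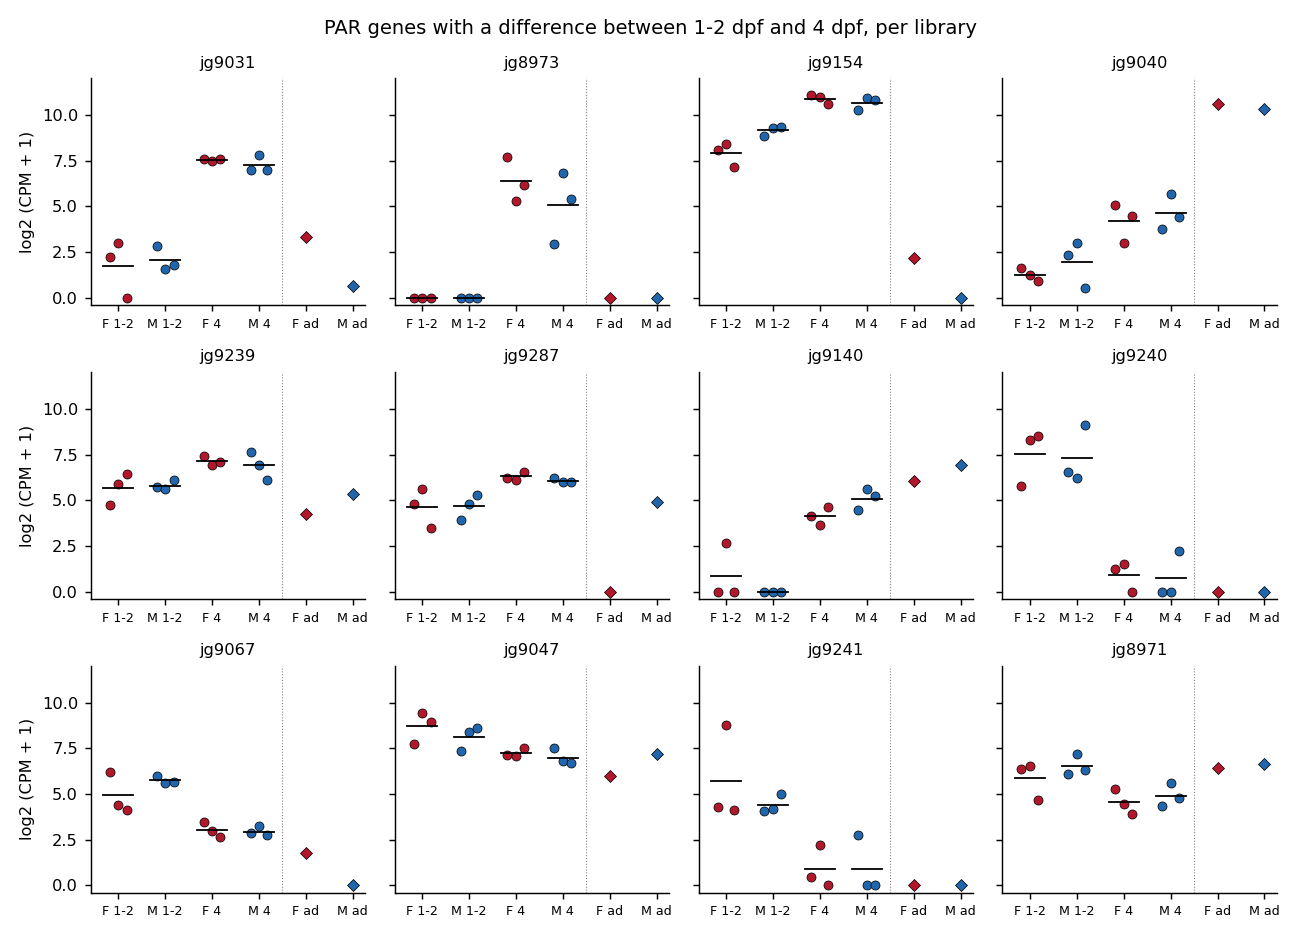
Levels of the 12 PAR genes with an adjusted p under 0.05 between the stages, as log2 (CPM + 1) per library, in females (F, red) and males (M, blue) at 1–2 dpf, at 4 dpf and as adults (ad, diamonds, 1 library each). Bars are means of 3 embryos; jg8973 is at 0 in all 6 embryos of 1–2 dpf, and jg9240 and jg9241 are at 0 in both adults.

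The increase with the smallest p was that of jg9031. Its 6 embryos at 1–2 dpf had 0, 3.14 and 6.86 CPM (lowest, median and highest) and the 6 at 4 dpf had 126, 184 and 225 CPM. The stages were far apart in both sexes, with a log2 fold change of 5.61 ± 0.62 (SE, adjusted p = 5.3e-05). In the adults jg9031 was back at 8.97 CPM in the female and 0.543 CPM in the male, the latter a single read.

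jg8973 had no read in any of the 6 embryos at 1–2 dpf. At 4 dpf it had 211, 37.7 and 71.4 CPM in the females and 6.65, 115 and 42.1 CPM in the males. Against a floor of 3 reads per library (0.823 CPM in the shallowest library of the younger stage), the mean at 4 dpf was at least 97.9-fold higher (adjusted p = 0.000501). It passed the minimum count through 4 dpf alone, so its raw counts had to differ between the stages. Neither adult had a read of it. Its neighbour by number, jg8974, was also higher in every 4 dpf embryo (17.7 to 47.6 CPM against 0 to 12.3 CPM) and also had no read in the adults. The adjusted p of jg8974 was 0.0913 by edgeR, and it passed the threshold with DESeq2 alone.

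jg9154 changed from an abundant gene to one of the most read PAR genes at 4 dpf. At 1–2 dpf it had 275, 337 and 144 CPM in females and 458, 616 and 660 CPM in males. At 4 dpf it had 2221, 2006 and 1557 CPM in females and 1257, 1951 and 1801 CPM in males. The log2 fold change was 2.12 ± 0.32 (SE, adjusted p = 0.00075). In the adults, 12 reads were counted in the female (3.59 CPM) and 0 in the male.

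jg9040 rose from 0.459, 1.76 and 7.09 CPM (lowest, median and highest) to 7.16, 21 and 50.9 CPM, with a log2 fold change of 3.16 ± 0.73 (SE, adjusted p = 0.013). The lowest embryo at 4 dpf was only just above the highest at 1–2 dpf. In contrast to jg9154, it was higher again in the adults, with 1531 CPM in the female and 1269 CPM in the male.

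jg9140 was found in 1 of 6 embryos at 1–2 dpf, female replicate 9, with 5.21 CPM. All 6 embryos at 4 dpf had it, with 11.4, 22.2 and 47.8 CPM (log2 fold change 4.91 ± 1.26 SE, adjusted p = 0.0252). The adults were above all embryos, with 65.8 CPM in the female and 122 CPM in the male. jg9140 passed the minimum count through 4 dpf alone, so its raw counts had to differ between the stages. The call was lost with the 2 dpf embryos alone, or without male replicate 5 or male replicate 8 at 4 dpf (highest adjusted p = 0.0676). Without female replicate 9 the younger stage had no read, and the fitted log2 fold change, 9.95, then depended on the prior count.

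The other 2 increases were smaller. jg9287 had 10.3, 26.9 and 47.5 CPM at 1–2 dpf and 63.1, 71.4 and 92.6 CPM at 4 dpf (log2 fold change 1.42 ± 0.35 SE, adjusted p = 0.0209), without overlap. jg9239 had 26.1, 54.3 and 85.1 CPM against 68.4, 129 and 202 CPM (log2 fold change 1.28 ± 0.31 SE, adjusted p = 0.0188), with overlap in male replicate 8 at 4 dpf. The call of jg9287 was lost with the 2 dpf embryos alone or without female replicate 11 at 4 dpf (highest adjusted p = 0.0697), and that of jg9239 with the 2 dpf embryos alone or without male replicate 2 at 4 dpf (highest adjusted p = 0.0546).

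Among the decreases, jg9240 fell furthest. At 1–2 dpf it had 54.9, 318 and 370 CPM in females and 93.6, 73.4 and 556 CPM in males. At 4 dpf it had 1.41, 1.87 and 0 CPM in females and 0, 0 and 3.67 CPM in males, and neither adult had a read. The log2 fold change was -7.84 ± 1.05 (SE, adjusted p = 0.000264), and the direction was shared by both sexes. jg9240 passed the minimum count through 1–2 dpf alone, so its raw counts had to differ between the stages.

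jg9241, the next gene by number, was also lower at 4 dpf in every embryo, with 15.5, 17.7 and 430 CPM at 1–2 dpf and 0, 0.201 and 5.8 CPM at 4 dpf. The value of 430 CPM came from female replicate 9, while the other 5 embryos were between 15.5 and 31 CPM. The log2 fold change was -5.65 ± 1.33 (SE, adjusted p = 0.0152) with this embryo and -3.54 without it (adjusted p = 0.0942). The 3 consecutive genes jg9239, jg9240 and jg9241 thus included 1 increase and 2 decreases.

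jg9067 fell from 16.7, 49 and 73.5 CPM to 5.35, 6.52 and 10.1 CPM, with a log2 fold change of -2.65 ± 0.44 (SE, adjusted p = 0.00135). The values at 4 dpf were close to each other and all below the lowest at 1–2 dpf. jg9047 fell from 161, 366 and 701 CPM to 102, 139 and 183 CPM (log2 fold change -1.44 ± 0.33 SE, adjusted p = 0.0118), with a small overlap of the stages. jg8971 fell from 24.6, 79.6 and 147 CPM to 14.1, 23.8 and 47.9 CPM (log2 fold change -1.55 ± 0.41 SE, adjusted p = 0.0282), also with overlap. The call of jg8971 was lost in 7 of 17 alternatives: with the 2 dpf embryos alone, without female replicate 9 or male replicate 2 at 1–2 dpf, and without female replicate 10 or 11 or male replicate 2 or 8 at 4 dpf (highest adjusted p = 0.0729).

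jg9031, jg8973, jg9154, jg9040, jg9240, jg9067 and jg9047 passed the threshold under all 17 alternatives, which left out each embryo in turn or changed the scaling, the filter, the tool, the covariate or the embryos' day. The alternatives did not change the choice of members, and jg8973 and jg9240 had passed the minimum count through 1 stage alone.

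**Figure D2:**
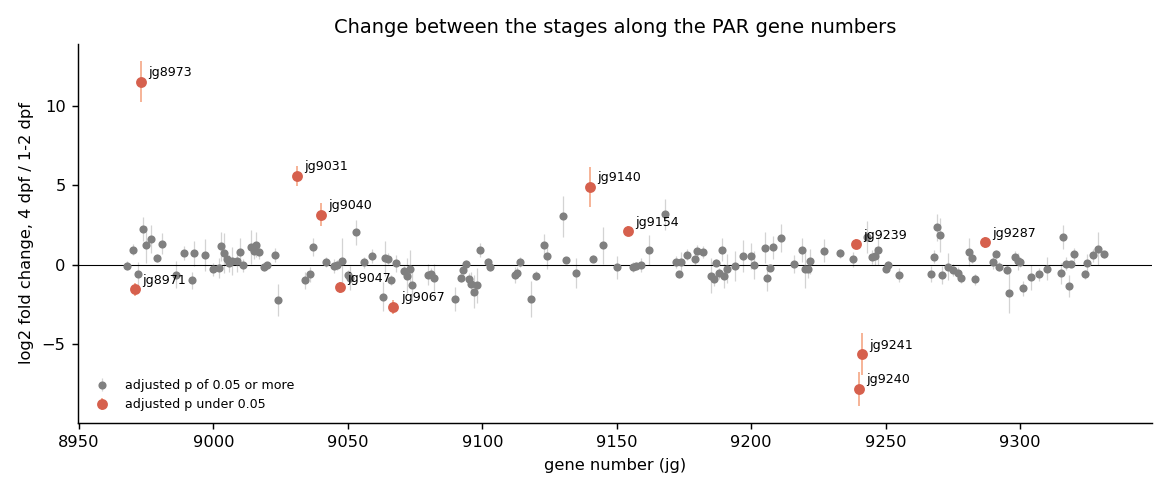
Log2 fold change from 1–2 dpf to 4 dpf (vertical axis) of the 169 tested PAR genes by gene number (horizontal axis), with standard errors as lines. The 12 genes with an adjusted p under 0.05 (red) are spread over the range of numbers, and jg9239, jg9240 and jg9241 are consecutive.

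The changed genes were spread over the numbers. In the 4 consecutive blocks of 91 gene numbers from jg8968 on, 5, 2, 3 and 2 of the genes were called. The median log2 fold change was 0.25 in the first block (47 genes tested), -0.45 in the second (38 genes), 0.17 in the third (40 genes) and 0.06 in the fourth (44 genes). In the table the 331 genes follow one another with 2 other identifiers between them, and their numbers rise along it with 1 step to a lower number, so the number gives nearly their order there and no distance in bases. Among 88 pairs with consecutive numbers, 58% changed in the same direction, against 52.5% of 3953 such pairs of autosomal genes. The correlation of neighbouring log2 fold changes was 0.24 across PAR pairs and 0.12 across autosomal pairs, given as a description, since neighbours share the same libraries.

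The stages were then compared within each sex, in embryos that the sexes do not share. In females, 3 of 167 genes were higher at 4 dpf (1.17% of all genes) and 2 were lower (0.608% of all genes). In males, 7 of 172 genes were higher (2.38% of all genes) and 2 were lower (0.946% of all genes). jg8973, jg9031 and jg9154 rose and jg9240 fell in both sexes. jg8973 passed the minimum count through 4 dpf alone and jg9240 through 1–2 dpf alone, so their raw counts had to differ between the stages. The increases in males also include jg9140 and jg9230, which passed it through 4 dpf alone. The log2 fold change of jg9031 was 5.74 ± 1.10 (SE) in females and 5.48 ± 0.55 in males, and that of jg9240 was -7.78 ± 1.18 in females and -8.03 ± 1.60 in males.

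Passing in 1 sex alone is not a difference between the sexes, which the interaction below tests. jg9097 passed in females alone. It fell from 322, 844 and 750 CPM to 134, 120 and 140 CPM in them (log2 fold change -2.30 ± 0.40 SE, adjusted p = 0.0297). jg9067 fell, and jg9140, jg9211, jg9230 and jg9317 rose, past the threshold in males alone. jg9211 rose in males from 5.8, 13 and 8.94 CPM to 48.5, 61 and 45.1 CPM (log2 fold change 2.49 ± 0.46 SE, adjusted p = 0.0286), whereas the females had 29.9, 3.29 and 11.2 CPM at 1–2 dpf and 70.2, 0.17 and 6.2 CPM at 4 dpf. The females of the older stage were thus widely apart. jg9230 had 0, 0.245 and 0 CPM in the males at 1–2 dpf and 9.9, 11.7 and 4.34 CPM at 4 dpf (adjusted p = 0.0485), and was too low in females to be tested. It passed the minimum count through 4 dpf alone, so that it had to differ between the stages.

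Of 162 PAR genes tested in both sexes, 113 (69.8%) changed in the same direction, against 65.4% of all genes. Both log2 fold changes exceeded 1 in size for 24 genes, and 23 of these had the same sign. Over all 7959 genes tested in both sexes, 1357 exceeded 1 in both, and 1177 of these had the same sign. The correlation across PAR genes was 0.72 (Pearson) and 0.53 (Spearman), against 0.62 and 0.45 across all genes, where genes are not independent replicates.

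**Figure D3:**
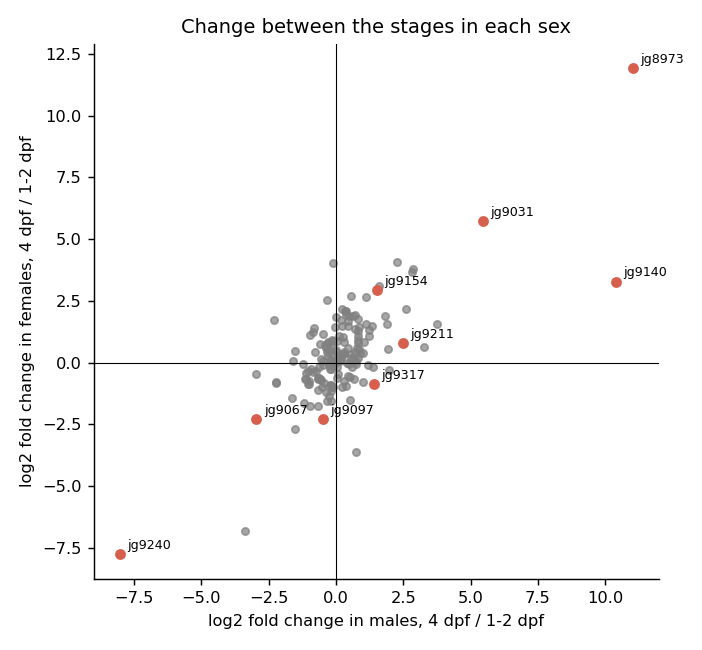
Log2 fold change from 1–2 dpf to 4 dpf in females (vertical axis) and in males (horizontal axis) for the 162 PAR genes tested in both. Red points passed an adjusted p of 0.05 in at least 1 sex; jg8973, jg9031, jg9154 and jg9240 passed in both.

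The second comparison asked whether PAR genes differed between females and males. No PAR gene passed the adjusted threshold at 1–2 dpf (0 of 156, 0% of all genes), at 4 dpf (0 of 171, 0% of all genes), over both stages with stage as a covariate (0 of 169, 0.0239% of all genes) or in the sex by stage interaction (0 of 177, 0% of all genes), by edgeR. At an unadjusted p under 0.05, 14 genes were found at 1–2 dpf (6.06% of all genes), 4 at 4 dpf (3.53% of all genes), 13 over both stages (5.33% of all genes) and 10 in the interaction (5.52% of all genes). With DESeq2, 1 PAR gene passed at 4 dpf, jg9246 (0.29% of all genes). Single embryos moved the unadjusted counts. The share of all genes was not worked out for the fits without an embryo, so the counts below cannot be set against the shares above. At 1–2 dpf the count was 30 without female replicate 3, 8 without female replicate 9, 4 without male replicate 2 and 9 without male replicate 3. At 4 dpf it was 7 without female replicate 7 or male replicate 2, and 2 without female replicate 10 or male replicate 8. Over both stages it was 6 without female replicate 9, 5 without male replicate 1 or 2 of 1–2 dpf, and 8 and 7 without male replicates 5 and 8 of 4 dpf. In the interaction it was 27 without female replicate 3, 5 without female replicate 9, 6 without male replicate 2 of 1–2 dpf and 6 without female replicate 10 of 4 dpf.

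The median log2 fold change of females over males was -0.07 at 1–2 dpf, where it was -0.14 over all genes, and -0.04 at 4 dpf, where it was -0.01 over all genes. Single embryos turned the sign of the first of these, which was 0.059 without female replicate 12 and 0.00016 without male replicate 1, but -0.26 without female replicate 3 and -0.33 without female replicate 9. At 4 dpf the median was 3e-06 without male replicate 2, and it was 0.03 over genes with a mean above 100. The median standard error of a single gene was 0.72 at 1–2 dpf and 0.53 at 4 dpf, and a miss of the threshold does not show equal levels.

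The sexes did not overlap for 32 of the 169 genes at 1–2 dpf, where 16.5% of all genes did not, and for 16 at 4 dpf, where 10.8% of all genes did not. They were apart in the same direction at both stages for 2 genes, jg9064 and jg9162, against 1.24% of all genes. jg9162 had 5.11, 2.47 and 0 CPM in females and 20.6, 6.6 and 6.19 CPM in males at 1–2 dpf, then 9.66, 8.01 and 0.642 CPM in females and 16.3, 15 and 27.4 CPM in males at 4 dpf. Males were above females each time, but the unadjusted p was 0.194 at 1–2 dpf and 0.1 at 4 dpf. jg9064 had the same order at low levels, with 0 to 0.538 CPM in females and 0.917 to 16.7 CPM in males at 1–2 dpf, and 2.21 to 4.71 CPM in females and 5.05 to 7.68 CPM in males at 4 dpf.

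The 3 genes that the study names in the PAR showed no adjusted difference between the sexes. jg8968 had 150, 53.2 and 41.3 CPM in females and 129, 119 and 115 CPM in males at 1–2 dpf, and 76.7 to 122 CPM in all embryos at 4 dpf. jg9331 had 99.5, 142 and 150 CPM in females and 67.7, 83.2 and 83.2 CPM in males at 1–2 dpf, with all females above all males, and 118 to 189 CPM at 4 dpf, where the sexes overlapped. jg9092 had 107 to 249 CPM at 1–2 dpf and 61.4 to 120 CPM at 4 dpf (log2 fold change between stages -0.86 ± 0.25 SE, adjusted p = 0.0518). This decrease passed with DESeq2 (adjusted p = 0.0241) and without female replicate 12 at 1–2 dpf (log2 fold change -0.95, adjusted p = 0.0265). The increase of jg9331 between the stages, 0.65 ± 0.24 (SE) on the log2 scale, had an adjusted p of 0.124, and likewise passed with DESeq2 (adjusted p = 0.0479) and without that embryo (adjusted p = 0.0482). Of these 3 genes, jg9092 differed most between the adults, with 136 CPM in the female and 12.5 CPM in the male.

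Among the genes with the smallest unadjusted p at 1–2 dpf, jg9317 had 116, 88.9 and 152 CPM in females and 45.7, 34.5 and 33 CPM in males (log2 fold change 1.68 ± 0.39 SE, unadjusted p = 0.00273, adjusted p = 0.782). At 4 dpf the order was not kept, with 115, 36.3 and 44.1 CPM in females and 93.4, 94.3 and 109 CPM in males. The interaction of jg9317 was -2.26 ± 0.62 (SE) on the log2 scale (unadjusted p = 0.00279, adjusted p = 0.837).

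jg9099 showed the opposite order at 1–2 dpf, with 16.1, 42.5 and 22.1 CPM in females and 144, 69.7 and 83.9 CPM in males (log2 fold change -1.86 ± 0.53 SE, unadjusted p = 0.0083, adjusted p = 0.782). The sexes overlapped at 4 dpf, with 109, 84.4 and 156 CPM in females and 122, 93.8 and 159 CPM in males. jg9154 was likewise lower in the 3 females at 1–2 dpf (log2 fold change -1.18 ± 0.37 SE, adjusted p = 0.782), and its females and males overlapped at 4 dpf. jg9156 had 362, 978 and 963 CPM in females and 309, 325 and 376 CPM in males at 1–2 dpf, where female replicate 3, taken at 1 dpf, was among the male values. jg9073 was under 1 CPM in the females and 4.13 to 12.5 CPM in the males at 1–2 dpf, and overlapped at 4 dpf.

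The same division within the females of 1–2 dpf, replicate 3 against replicates 9 and 12, was seen in genes ranked first over both stages. jg9278 had 105, 256 and 248 CPM in those females and 101, 91.5 and 88 CPM in the males (over both stages, log2 fold change 0.72 ± 0.28 SE, unadjusted p = 0.0219, adjusted p = 0.879). jg9301 had 29.9, 91.4 and 95.6 CPM against 22.7, 28.6 and 32.6 CPM. Replicate 3 was the 1 dpf female, so age and embryo cannot be told apart here.

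At 4 dpf the smallest unadjusted p was that of jg9246, with 105, 417 and 385 CPM in females and 100, 89.2 and 74.1 CPM in males (log2 fold change 1.79 ± 0.47 SE, unadjusted p = 0.00483, adjusted p = 0.999 by edgeR and 0.0299 by DESeq2). Over the alternatives, the adjusted p of jg9246 ranged from 0.0299 to 1. At 1–2 dpf the order was not the same, with 266, 50.5 and 29.7 CPM in females and 181, 172 and 114 CPM in males. jg8989 was lower in the females at 4 dpf, with 44.3, 36.8 and 26.7 CPM against 92.4, 60.1 and 52.7 CPM in males (unadjusted p = 0.0298, adjusted p = 0.999). The remaining genes ranked first at 4 dpf were jg9267, jg9140 and jg9325, and over both stages jg9015, jg9006 and jg9325 were ranked first as lower in females, at adjusted p = 0.879 each.

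The neighbours jg9096 and jg9097 split the males at 4 dpf. jg9097 had 0.523 CPM in male replicate 5 and 0.668 CPM in male replicate 8, but 352 CPM in male replicate 2, while the females had 134, 120 and 140 CPM. All 6 embryos at 1–2 dpf had at least 94.2 CPM of jg9097, and the adults had 138 CPM (female) and 118 CPM (male). jg9096 had 1.22 and 1 CPM in the same pair of males, 9.48 CPM in male replicate 2 and 26, 15.3 and 14.1 CPM in the females.

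The same 2 embryos were thus the lowest for both genes. The sex difference of jg9097 at 4 dpf was 0.18 ± 1.64 (SE) on the log2 scale with all 6 embryos (adjusted p = 0.999). Without male replicate 2 it was 7.76 ± 0.44 (adjusted p = 0.00156), with an interaction of 5.76 ± 0.81 (adjusted p = 0.0385), so that 1 embryo decided both values. The unadjusted p of jg9096 at 4 dpf was 0.0476 (log2 fold change 2.23 ± 0.96 SE, adjusted p = 0.999), and without male replicate 2 its log2 fold change was 4.01 (adjusted p = 0.794).

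**Figure D4:**
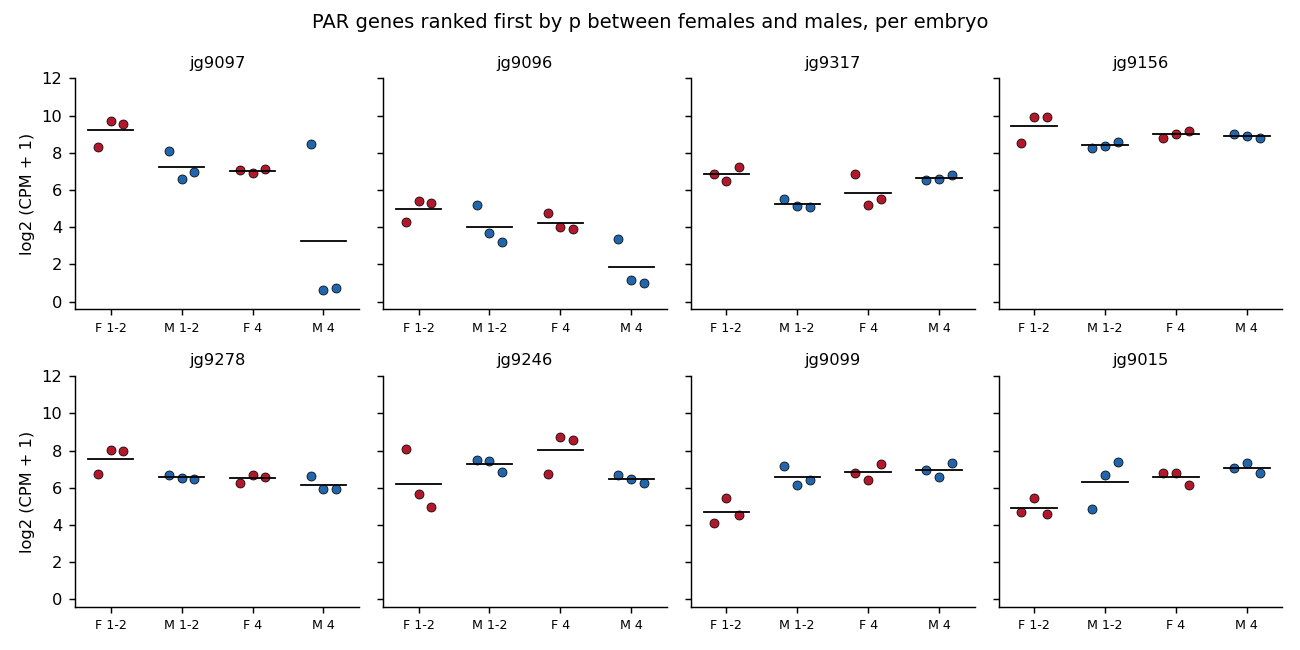
Levels of 8 PAR genes among those with the smallest unadjusted p between females (F, red) and males (M, blue), as log2 (CPM + 1) per embryo, with means of 3 embryos as bars. jg9097 and jg9096 are near 0 in 2 of 3 males at 4 dpf, and none of the 8 genes passed the adjusted threshold between the sexes by edgeR.

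The sex differences at both stages could be set side by side for 151 genes, which come from different embryos. Their signs were the same for 96 (63.6%), against 53.2% of all genes. The correlation across PAR genes was 0.17 (Pearson) and 0.22 (Spearman), against 0.095 and 0.089 across all genes. These values are a description, since all genes of a stage share the same embryos and are not independent replicates. Both differences exceeded 1 in size on the log2 scale for 3 genes, of which 2 had the same sign. Over all 7676 genes this held for 459, of which 272 had the same sign.

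In the adults, with 1 library per sex, no test was possible and values describe those libraries. Reads were found for 145 of the 178 genes in at least 1 adult, for 95 in both, for 27 in the female alone and for 23 in the male alone. The adult female had reads on 122 of the 178 and the adult male on 118, as many as female replicate 12 at 1–2 dpf (118). Bounds against a floor of 3 reads in an adult cover counting error only. Whether genes were lost from these libraries was not tested. Of 93 genes with at least 50 reads in an adult, 16 were at least 4-fold higher in the female (21.6% of all genes) and 14 at least 4-fold higher in the male (20.5% of all genes), on the scale of CPM plus a pseudocount of 1. The other 63 were between these limits. With no minimum of reads, 31 genes passed the limit toward the female (21.2% of all genes with an adult read) and 29 toward the male (23.5% of them).

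The genes with the largest ratios in the female had no read in the male. jg9233 had 62.8 CPM in the female from 210 reads, at least 38.5-fold above a floor of 3 reads in the male. In the embryos jg9233 was found in both sexes, from 37.3 to 141 CPM. The same pattern, present in embryos of both sexes and without a read in the adult male, was seen for jg9298, which had 49.6 to 392 CPM in the embryos and 30.5 CPM in the adult female (at least 18.7-fold), and for jg9271 and jg9206 (at least 14.5-fold and 21.7-fold). jg9098 had 45.8 CPM in the adult female (at least 28.1-fold) and at most 20 CPM in an embryo.

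The reverse was seen for genes of the adult male. jg9273 had 118 CPM in the male and 0.598 CPM in the female (2 reads), a ratio of 197 (95% exact binomial interval of the read split, 53.9 to 1637), against at most 19 CPM in an embryo. jg9011 had 58.7 CPM in the male and no read in the female (at least 65.4-fold), and 12.6 to 56.9 CPM in the embryos without a division by sex. jg9050 and jg9320 also lacked reads in the adult female (at least 57.5-fold and 45.4-fold) while all 12 embryos had them. jg9270 lacked reads in the adult female as well (at least 64.2-fold), and had 0 to 22.2 CPM in the embryos. For these 5 genes the female and male embryos overlapped at both stages.

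**Figure D5:**
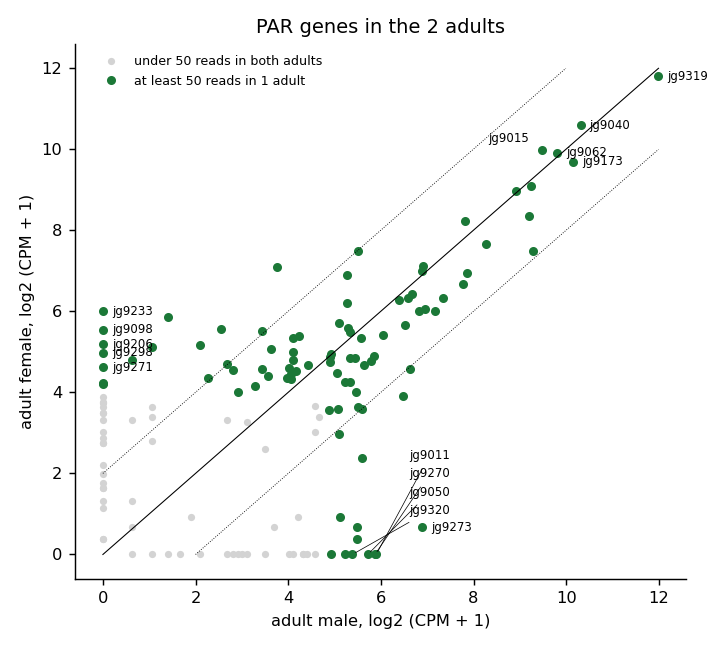
Level of each PAR gene in the adult female (vertical axis) and the adult male (horizontal axis), as log2 (CPM + 1), for the 145 genes with reads in at least 1 adult. Dotted lines mark 4-fold ratios; jg9319, jg9040, jg9062, jg9015 and jg9173 lie between them, and labelled genes on an axis had 0 reads in the other adult.

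Adults and embryos were set side by side without a test, since the libraries differ in tissue, RNA input and scaling. Both adults were above all 12 embryos for 13 of the 178 genes (6.13% of all genes) and below all of them for 44 (22% of all genes), and 33 had 0 reads in both adults (21.4% of all genes). jg9319 was the most read PAR gene of the adults, with 3546 CPM in the female and 4071 CPM in the male. It had a CV of 18.3% in the embryos, all of which were below both adults.

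Some genes had far more reads in the adults than in any embryo. jg9062 had 0 to 19.9 CPM in the embryos, 962 CPM in the adult female and 887 CPM in the adult male. jg9015 had 22.8 to 169 CPM in embryos, and 1013 and 716 CPM in the adults. jg9259 had 0 CPM in 7 of the 12 embryos and at most 33.5 CPM, against 177 and 619 CPM in the adults. The reverse held for jg9120, with 71.6 to 316 CPM in the embryos and 0 reads in both adults, a mean at least 93.9-fold above the floor of the shallower adult. jg9102 had 30.4 to 101 CPM in every embryo and likewise 0 reads in the adults (at least 44.4-fold).

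The 12 genes that changed between the embryonic stages did not share 1 course into the adult. jg9040 and jg9140 rose to 4 dpf and were higher still in both adults. jg9031, jg8973 and jg9154 were low or at 0 in both adults after their rise. jg9287 had 29.3 CPM in the adult male and 0 reads in the female. jg9239 had at least 50 reads in an adult, and its ratio between the adults was within the 4-fold limits. Of the decreasing genes, jg9240 and jg9241 had 0 reads and jg9067 had 2.39 CPM in the female and 0 in the male, whereas jg8971 was at 85 and 100 CPM in the adults, within its range at 1–2 dpf. jg9047 had 63.4 CPM in the adult female and 142 CPM in the adult male.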

How the data were processed

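RNA of 12 single embryos and 2 adults was sequenced from poly(A) RNA with a low-input kit. The deposited table holds raw counts per gene, which the authors made with the Cogent pipeline (trimming, mapping, counting) from all reads, without UMI collapsing. The study used a published assembly of the species as its reference. The strand setting of the counting is not given in the sources used here, so overlapping genes and close copies could share reads. Barcodes in the column names gave the sample of each column, and 0 columns belonged to other series.

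Genes between jg8968 and jg9331 with a mean raw count above 10 were taken. Members, lists and tests were chosen with earlier results of these data known. Fits used all genes in R 4.3.3 with edgeR 4.0.16 (filterByExpr, TMM, quasi-likelihood F test, Benjamini-Hochberg, threshold 0.05) and limma 3.58.1, with DESeq2 1.42.0 as alternative. The edgeR fits were also run on simulated counts with a fixed dispersion and without lost genes, a simpler setting than these data. Standard errors were derived from the F statistic and the fold change. Log2 CPM used a prior count of 2 and adult ratios a pseudocount of 1 CPM. Depth ranged from 1840926 to 7463397 counts, and 3 reads equal 0.402 to 1.63 CPM. Figures used Python 3.11.15 and matplotlib 3.10.9.

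Autosomal genes were taken by number, below 8000 or from 10027 on. "All genes" are those tested in the same fit, those with at least 50 reads in an adult, or, for adults against embryos, the 9053 genes with a mean above 10.

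Named genes were the 3 named by the study, the 10 most read, the stage calls (up to 10 per direction), the smallest p between the sexes (3 per direction and stage, 4 over both) and in the interaction (3 per direction), the 5 highest and lowest adult ratios, the 5 most read in adults, the 6 steadiest, 5 without adult reads and 5 on each side of the minimum. jg8974, jg9063, jg9064, jg9090, jg9162, jg9199, jg9211, jg9230 and jg9259 were named after their values were seen.

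Alternatives were DESeq2, RLE scaling, no filter, a covariate, 2 dpf embryos only, a mean above 100 and each embryo left out. Other data types of the study were not used here.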

Additional observations from a re-analysis of the deposited data

Results flagged for a closer look

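Within each stage, 120 groups of 6 embryos (log2 CPM of a named gene) were checked for a single embryo far from the others, by the gap to the nearest value divided by the range. The gap passed Dixon's 95% critical value in 7 groups, and chance alone passes about 1 in 20. At 1–2 dpf, female replicate 9 stood apart for jg9140 (ratio 1, 5.21 CPM against 0 in the other 5), for jg9241 (0.795, 430 CPM) and for jg8989 (0.626, 7.14 CPM). Female replicate 12 stood apart for jg9206 (0.708, 0 CPM) and jg9102 (0.711, 30.4 CPM). At 4 dpf, male replicate 2 was the low embryo for jg9131 (0.638, 224 CPM) and male replicate 8 the high one for jg8981 (0.693, 8.68 CPM).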

How the results depend on the processing

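Of 998 values under the alternatives, 923 were labelled as unchanged. Single genes then kept their direction and side of the threshold, whatever their size. Counts stayed within 1.5 times, and medians and adult ratios moved by less than the spread or the counting interval. The label is a loose one, since genes far from the threshold could hardly change side. It covered the stage change of jg9140, which went from 4.91 to 9.95 without female replicate 9 of 1–2 dpf. Of 73 medians among the 998, 8 had the other sign: 3 at 1–2 dpf between the sexes, 2 at 4 dpf, 2 over both stages (from -0.13 to 0.017 without female replicate 12 of 1–2 dpf, and to 0.046 at a mean above 100) and 1 in the interaction (from 0.17 to -0.034 without that embryo). The count of PAR genes higher at 4 dpf was 15 with DESeq2 (8.11% of all genes) and 4 with the 2 dpf embryos only. At 4 dpf, DESeq2 called 1 gene, jg9246, higher in females. Over both stages, 20 genes had an unadjusted p under 0.05 between the sexes with DESeq2. The share of all genes was not worked out for that count, nor for the one with the 2 dpf embryos only. With no minimum of reads, 31 genes passed the 4-fold limit toward the adult female and 29 toward the male (21.2% and 23.5% of all genes with an adult read). DESeq2 and edgeR shared 11 of the 12 stage calls, and DESeq2 gave jg9241 no adjusted p. The cause of these changes was not tested.

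Leaving out each embryo in turn, the count of genes lower at 4 dpf ranged from 3 to 6. The counts at an unadjusted p under 0.05 between the sexes ranged from 4 to 30 at 1–2 dpf, from 2 to 7 at 4 dpf, from 5 to 16 over both stages and from 5 to 27 in the interaction. No share of all genes was worked out for the fits behind these ranges. Adjusted calls ranged from 0 to 1 at 4 dpf and from 0 to 1 in the interaction, both jg9097 without male replicate 2. Among the genes ranked first in the interaction, jg9140 went from -7.06 to -1.02 on the log2 scale without female replicate 9 of 1–2 dpf. That of jg9024 was -4.37, and -6.31 to -3.44 over the alternatives. Those of jg9154, jg9099 and jg9176 ranged from 1.10 to 1.65, 1.41 to 2.24 and 1.11 to 1.73, and that of jg9317 from -2.96 to -1.98.

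Values near 0 changed sign. The stage change of jg8968 was 0.0025 with DESeq2, 0.0028 with RLE scaling and 0.24 with the 2 dpf embryos only, and ranged from -0.22 to 0.084 with an embryo left out. Its sex difference at 4 dpf was 0.0022 without a filter and ranged from -0.18 to 0.19. The sex difference of jg9092 at 1–2 dpf ranged from -0.46 to 0.20, and the adult log2 ratio of jg9319 was 0.17 after TMM scaling, against -0.20 without.

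Depth limits low genes: 3 reads equal up to 1.12 CPM in an embryo. No paired analysis was possible, since the embryos were sequenced singly and the labels give neither brood nor any other pairing.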

Other observations

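The 2 embryos of 1 dpf were set against the 4 of 2 dpf, a comparison chosen after seeing the data. Both 1 dpf embryos were above all 4 others for 20 of 156 PAR genes (11.4% of all genes) and below them for 9 (7.68% of all genes), and no gene passed an adjusted p of 0.05 by edgeR. At an unadjusted p under 0.05 there were 7 PAR genes (4.49%, against 3.99% of all genes).

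In 5 PAR genes, jg9063, jg9090, jg9199, jg9241 and jg9259, a single embryo held over 50% of the summed CPM of the 12 (5 of 178, against 2.88% of all 9053 genes with a mean above 10). jg9199 had 114 CPM in female replicate 9 at 1–2 dpf and at most 0.856 CPM in the other 11 embryos, and jg9090 had 70.9 CPM in male replicate 3 at 1–2 dpf and 3.01 to 23 CPM in the others.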
